A study of Triticum aestivum with 6 samples.

Results

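The asparagine synthetase genes ASN1 and ASN2 were examined in the developing endosperm of wheat, with 5 genes chosen by identifier from the 127196 genes of the expression table. ASN1 was represented by its copies on chromosomes 5A (TraesCS5A01G153900), 5B (TraesCS5B01G152600) and 5D (TraesCS5D01G159100), and ASN2 by its copies on chromosomes 3A (TraesCS3A01G077100) and 3D (TraesCS3D01G077300). The table gives identifiers without names or positions, so the names ASN1 and ASN2 rest on the list of identifiers and were not checked against a sequence or an annotation, and a chromosome 3B copy of ASN2 was not among the genes chosen. The samples came from the winter wheat cultivar Zhoumai36, grown in the field, and grains were taken 25 days after anthesis. The innermost endosperm region (IE, 3 libraries) comprises the central zone of the lobes in a middle slice of the grain, and the remaining endosperm region (RE, 3 libraries) is the rest of the endosperm of that slice, in which living aleurone and starchy endosperm are mixed. The pericarp was taken off before the slice was divided under a stereomicroscope. The study grew plants without nitrogen fertilizer and with it, but the labels of these 6 libraries give the region and the replicate only, so that the nitrogen level was left unassigned.

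Asparagine synthetase transfers the amide group of glutamine to aspartate, with the use of ATP, and yields asparagine and glutamate. Asparagine carries much nitrogen for its carbon and serves plants as a form in which nitrogen is moved and stored, for instance on its way into the grain. Free asparagine left in the grain is the precursor from which acrylamide forms when cereal products are baked or toasted, and the asparagine synthetase genes of wheat have been studied mainly for that reason. ASN2 is known as the gene of the family that is expressed chiefly in the grain, whereas ASN1 is expressed in several organs and responds to nutrient supply. Bread wheat holds related copies of most genes on its A, B and D genomes, which are called homoeologs.

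Expression is given in FPKM, the number of fragments scaled to the length of the gene and to the total of the library, as deposited by the authors. The whole numbers of fragments behind these values were recovered, and the libraries rest on totals of 13959933 to 21766392 fragments in IE and 17808462 to 20935931 fragments in RE. For a gene of 1 kb, 3 fragments equal 0.138 to 0.215 FPKM depending on the library, which is less than any value of the 5 genes. The gliadin and globulin genes that the study names were read as storage protein genes, and all 3 were above 0 in 6 of 6 libraries. From 68296 to 75911 genes were above 0 in a library, so this alone does not identify the tissue. The study chose these 3 genes as differing between the regions, so they are no independent check of the regions. The gliadin gene TraesCSU01G153800 ranged over 31.9 to 50.4 FPKM in IE against 21.1 to 25.5 FPKM in RE, and the globulin gene TraesCS4D01G171800 over 160 to 403 FPKM in IE against 356 to 547 FPKM in RE. The other globulin gene, TraesCS7D01G351300, lay between 0.663 and 6.22 FPKM in IE and between 2.01 and 6.63 FPKM in RE. Aleurone and embryo markers were not analysed here, as no source at hand pairs such a marker with an identifier.

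ASN2 was the more abundant gene in all 6 libraries. With the libraries taken as unpaired, neither ASN1 nor ASN2 separated IE from RE beyond the spread between replicates. The 3A copy of ASN2 was among the most abundant 5% of expressed genes. It ranked between the 95.2nd and the 98.2nd percentile of the genes above 0 in each library, and the 3D copy between the 81.1st and the 95.7th. The ASN1 copies ranked between the 58.8th and the 85.4th percentile. Averaged over the 6 libraries, the levels were 32.9 FPKM for ASN2 3A, 11.5 FPKM for ASN2 3D, 4.64 FPKM for ASN1 5D, 4.42 FPKM for ASN1 5A and 2.56 FPKM for ASN1 5B. ASN2 3A exceeded ASN2 3D in 6 of 6 libraries, by 2.45 to 4.94 times. ASN2 3D exceeded ASN1 5D in 5 of 6 libraries, RE replicate 1 being the exception with a ratio of 0.726. ASN1 5D lay above ASN1 5A in 5 of 6 libraries, but the 2 did not differ beyond their spread. Their mean log2 ratio over the libraries of both regions was 0.06 ± 0.13 (SD, n = 6 libraries). ASN1 5A exceeded ASN1 5B in 6 of 6 libraries, by 1.50 to 2.24 times. These comparisons between copies rest on the lengths that the authors used, which were recovered as 1956 bases for 3A, 1746 for 3D, 1856 for 5A and 1758 for both 5B and 5D. All but the length of 5A are multiples of 3, as are 78.5% of the recovered lengths of well-covered reference genes.

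**Figure D1:**
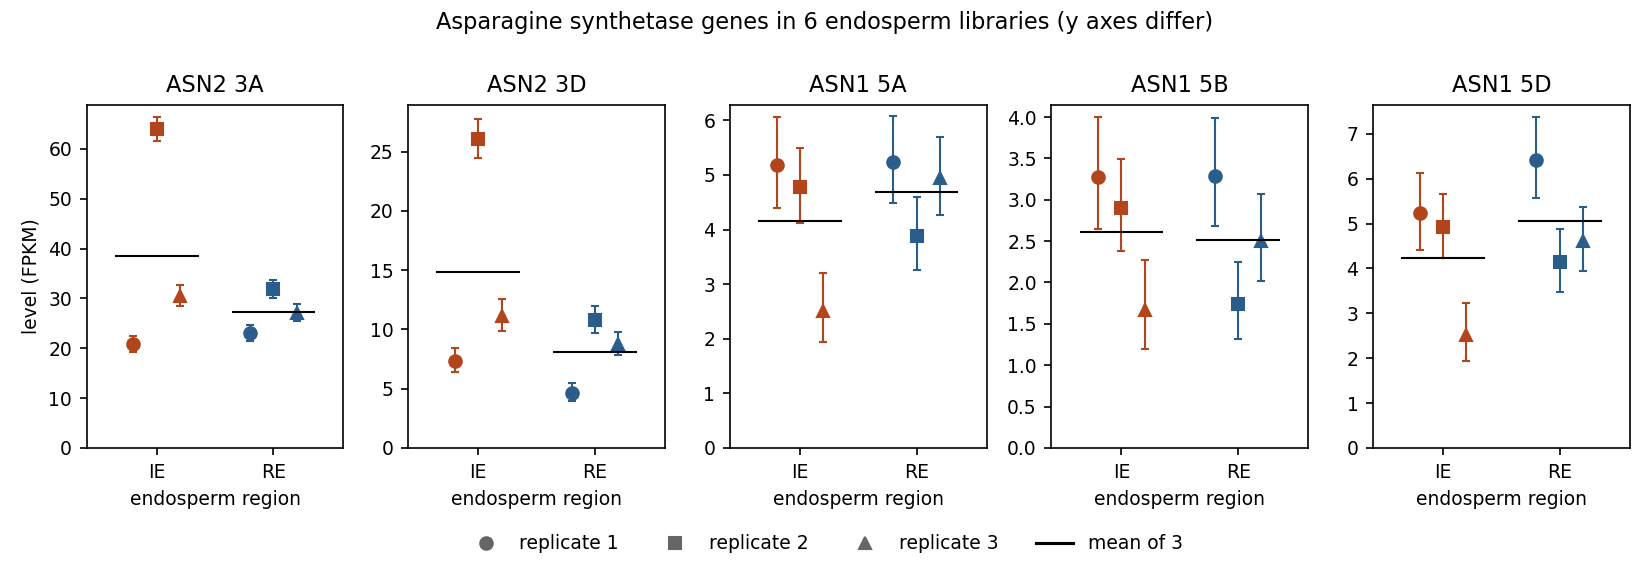
Level in FPKM (vertical axes, each from 0 and with its own range) of the 5 asparagine synthetase genes in the 3 IE and the 3 RE libraries. Symbols mark the replicate, vertical bars are exact 95% Poisson intervals of the recovered fragments (counting error only) and horizontal lines are means of 3 libraries. IE replicate 2 stands highest for both ASN2 copies, at 64.0 FPKM for 3A and 26.1 FPKM for 3D, and IE replicate 3 stands lowest for each ASN1 copy.

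The question put to the 2 regions was whether the enzyme that makes asparagine is expressed differently in the centre of the endosperm and in the rest of it. Transcript levels in a tissue piece mix cell types, so a smaller number of cells that express a gene and less RNA per cell cannot be told apart. Over all 51830 genes whose mean reached 0.5 FPKM, limma called 0 genes between IE and RE (0%), a call being an adjusted p no higher than 0.05 with a log2 fold change of 1 or more in either direction. An unadjusted p under 0.05 was found for 5203 genes (10%), and 2980 (5.75%) also passed the limit on the fold change, 850 of them higher and 2130 lower in IE. With limma's voom on the recovered fragments, 0 genes were called as well. All 5 asparagine synthetase genes entered this test and 0 of them were called. Without a replicate block, 0 had an unadjusted p under 0.05 with either tool. No copy had every IE library above every RE library, which held for 4.35% of the genes tested, and none had every IE library below every RE library, which held for 11.9%.

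The 3A copy of ASN2 was read at 20.8, 64.0 and 30.5 FPKM in the IE libraries in replicate order, and at 23.1, 31.9 and 27.1 FPKM in the RE libraries in the same order. All 3 RE libraries lay within the range of the IE libraries, whose lowest and highest values enclosed them. The mean level was 38.5 ± 22.6 FPKM (SD, n = 3) for IE against 27.4 ± 4.42 FPKM (SD, n = 3) for RE. The log2 fold change of IE over RE was 0.34 (standard error 0.39, 95% interval -0.57 to 1.26, limma adjusted p = 0.808). This copy was the best covered of the 5, with 666 to 2725 fragments per library, so that counting error was small beside the differences between replicates. The log2 fold change was 0.70 without IE replicate 1 and 0.23 without RE replicate 1, and it turned to -0.10 without IE replicate 2.

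The 3D copy of ASN2 was read at 7.36, 26.1 and 11.1 FPKM in the IE libraries in replicate order, and at 4.66, 10.8 and 8.75 FPKM in the RE libraries in the same order. The groups overlapped, since IE replicate 1 lay below RE replicates 2 and 3. The mean level was 14.9 ± 9.90 FPKM (SD, n = 3) for IE against 8.06 ± 3.11 FPKM (SD, n = 3) for RE, and the log2 fold change was 0.75 (standard error 0.49, 95% interval -0.40 to 1.90, limma adjusted p = 0.650). It was the largest log2 fold change among the 5 copies with all 6 libraries, and 94.1% of the genes tested had a lower one, yet its interval included 0. The value was 1.15 without IE replicate 1, 0.25 without IE replicate 2 and 0.40 without RE replicate 1.

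Summed over both copies, ASN2 was read at 28.2, 90.1 and 41.6 FPKM in the IE libraries in replicate order, and at 27.7, 42.7 and 35.9 FPKM in the RE libraries in the same order. IE replicate 2 alone lay outside the range of RE, and the medians were 41.6 FPKM in IE and 35.9 FPKM in RE. The difference of the log2 sums was 0.44 (standard error 0.52) and lay inside the spread between replicates (p = 0.6 by a two-sided exact permutation test, adjusted p = 0.7 over the ASN1 sum, the ASN2 sum and their ratio). With 3 libraries against 3 such a test cannot give a p under 0.1. The difference was 0.81 without IE replicate 1, -0.026 without IE replicate 2 and 0.27 without RE replicate 1.

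The spread of ASN2 among the IE libraries was wide. For the ASN2 sum, IE replicate 2 lay at 2.63 times the geometric mean of the other IE libraries, and 11.6% of the genes tested lay at least as far above in that library. IE replicate 1 lay at 0.461 times the geometric mean of the other IE libraries, a position that 4.87% of the genes tested shared or passed. The SD of the log2 values over the IE libraries was 0.82 for 3A and 0.92 for 3D, against a median of 0.41 over all genes tested. In RE the SD was 0.23 for 3A and 0.62 for 3D, against a median of 0.30. IE replicate 2 was also the library with the highest total of fragments. The median over all genes tested of the log2 difference from the other IE libraries was 0.23 in it. The globulin gene TraesCS4D01G171800 had 403 FPKM in it, and 160 and 186 FPKM in the other IE libraries. The globulin gene TraesCS7D01G351300 was also highest there, at 6.22 FPKM against 1.70 and 0.663 FPKM. The gliadin gene TraesCSU01G153800 went the other way, at 31.9 FPKM against 44.7 and 50.4 FPKM. Whether what sets this library apart has a part in the ASN2 values was not tested.

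Each ASN1 copy had a lower mean level than either ASN2 copy, and the levels in IE and RE overlapped. ASN1 5A was read at 5.18, 4.78 and 2.51 FPKM in the IE libraries in replicate order, and at 5.23, 3.89 and 4.94 FPKM in the RE libraries in the same order. Of the IE libraries only replicate 3 lay below the range of RE. The mean level of 5A was 4.16 ± 1.44 FPKM (SD, n = 3) for IE against 4.69 ± 0.707 FPKM (SD, n = 3) for RE, a log2 fold change of -0.23 (standard error 0.31, 95% interval -0.94 to 0.49, limma adjusted p = 0.843).

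ASN1 5D was read at 5.22, 4.91 and 2.53 FPKM in the IE libraries in replicate order, and at 6.42, 4.14 and 4.62 FPKM in the RE libraries in the same order. Its highest value was in RE replicate 1 and its lowest in IE replicate 3, while the other libraries lay close together. The mean level was 4.22 ± 1.48 FPKM (SD, n = 3) for IE against 5.06 ± 1.20 FPKM (SD, n = 3) for RE, a log2 fold change of -0.30 (standard error 0.33, 95% interval -1.06 to 0.46, limma adjusted p = 0.797).

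ASN1 5B, the weakest of the 3 copies, was read at 3.27, 2.90 and 1.67 FPKM in the IE libraries in replicate order, and at 3.29, 1.74 and 2.50 FPKM in the RE libraries in the same order. The ranges of the regions almost coincided. The mean level was 2.62 ± 0.839 FPKM (SD, n = 3) for IE against 2.51 ± 0.776 FPKM (SD, n = 3) for RE, a log2 fold change of 0.05 (standard error 0.34, 95% interval -0.73 to 0.83, limma adjusted p = 0.974). It rested on 41 to 111 fragments per library, the lowest numbers of the 5 genes. The log2 fold change turned to -0.13 without IE replicate 1, -0.05 without IE replicate 2 and -0.18 without RE replicate 2.

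The summed level of ASN1 was 13.7, 12.6 and 6.71 FPKM in the IE libraries in replicate order, and 14.9, 9.76 and 12.1 FPKM in the RE libraries in the same order. The difference of the log2 sums was -0.20 (standard error 0.37), which the spread between replicates exceeded (p = 0.7, two-sided exact permutation test). IE replicate 3 was the lowest library for each of the 3 copies, and its exact 95% Poisson interval for 5A, 1.94 to 3.20 FPKM, lay below the intervals of IE replicate 1 (4.40 to 6.06 FPKM) and IE replicate 2 (4.13 to 5.50 FPKM). In that library the ASN1 sum stood at 0.511 times the geometric mean of the other IE libraries, and 15.6% of the genes tested stood as low or lower. Without IE replicate 3, the difference of the ASN1 sums turned to 0.12, and the log2 fold changes of 5A and 5D turned to 0.095 and 0.027. IE replicate 3 had the lowest total of fragments. The median over all genes tested of the log2 difference from the other IE libraries was -0.24 in it. The nitrate reductase gene TraesCS6A01G017500 had 3.03 FPKM in it, and 16.1 and 27.4 FPKM in the other IE libraries. The gliadin gene TraesCSU01G153800 was highest there instead, at 50.4 FPKM against 44.7 and 31.9 FPKM. The part of this library's state in the ASN1 values was not tested.

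**Figure D2:**
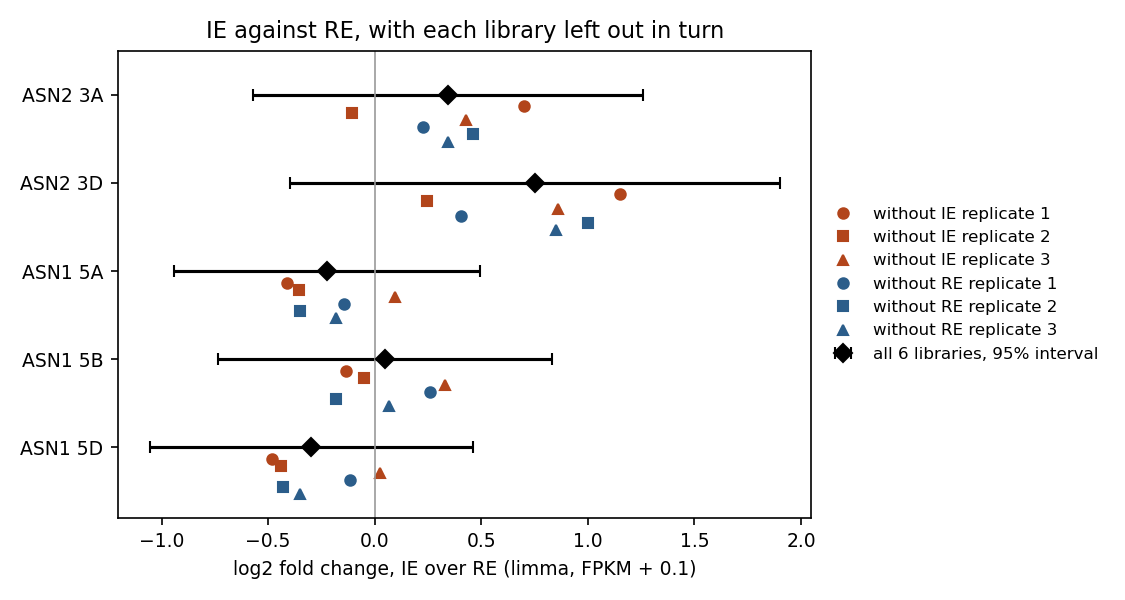
Log2 fold change of IE over RE (horizontal axis, limma on log2(FPKM + 0.1)) for the 5 genes. Diamonds with bars are the values from all 6 libraries with 95% intervals, and the smaller symbols are the values with 1 library left out. Every interval includes 0, and only ASN2 3D kept its sign whichever library was left out, between 0.25 and 1.15.

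The copies of a gene varied together over the libraries, and ASN1 and ASN2 followed different orders. All 3 copies of ASN1 were highest in RE replicate 1 and lowest in IE replicate 3. Both copies of ASN2 were highest in IE replicate 2, and their lowest values were in IE replicate 1 for 3A and in RE replicate 1 for 3D. Within RE, the order of the ASN1 sums (replicates 1, 3 and 2 from high to low) was the reverse of that of the ASN2 sums. How reads that match more than 1 homoeolog were assigned is not given in the sources used here, so the values of single copies are uncertain to that extent.

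The ratio of the ASN2 sum to the ASN1 sum does not depend on how libraries are scaled. It was 2.06, 7.15 and 6.21 in the IE libraries in replicate order, and 1.85, 4.37 and 2.98 in the RE libraries in the same order. The ratio was lowest in replicate 1 of both regions, and in 7 of the 9 pairs of an IE with an RE library the IE library had the higher ratio. The log2 ratio differed by 0.64 between the regions (standard error 0.67), inside the spread between replicates (p = 0.4 by a two-sided exact permutation test, adjusted p = 0.7). It was 1.21 without IE replicate 1, 0.31 without IE replicate 2, 0.32 without RE replicate 1 and 0.41 without IE replicate 3. ASN2 made up 67.3, 87.7 and 86.1% of the summed FPKM of all 5 genes in the IE libraries in replicate order, and 65.0, 81.4 and 74.8% in the RE libraries in the same order.

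**Figure D3:**
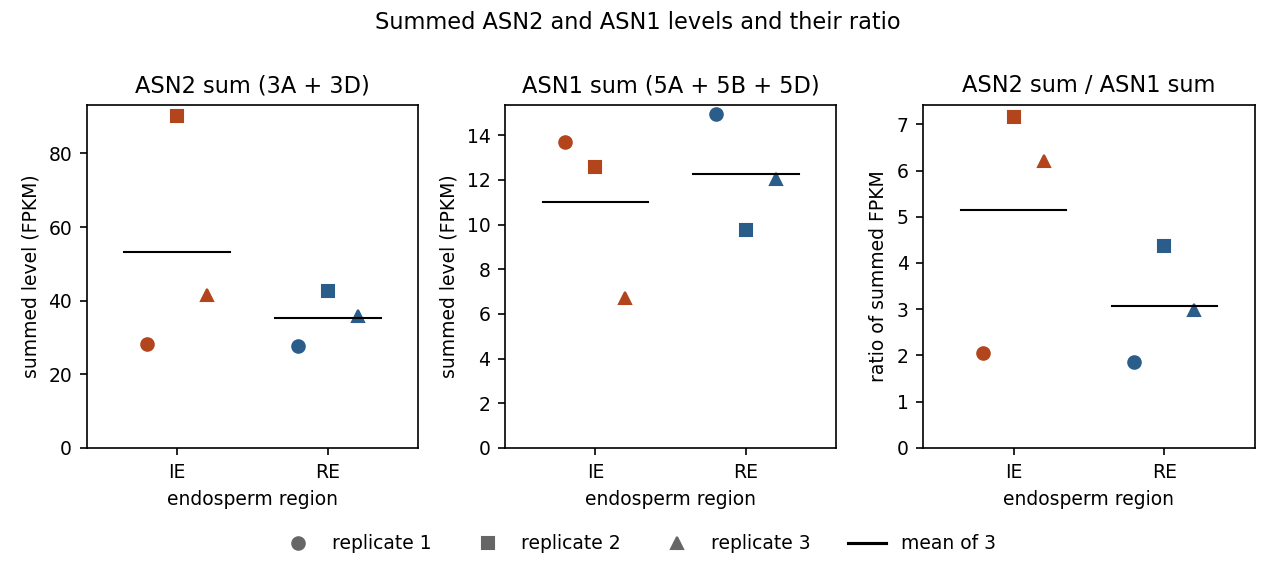
Summed FPKM of the ASN2 copies (left), summed FPKM of the ASN1 copies (middle) and the ratio of both sums (right) in the 3 IE and the 3 RE libraries, with horizontal lines at the means. The ASN2 sum of IE replicate 2, 90.1 FPKM, lies apart from the other 5 libraries, which run from 27.7 to 42.7 FPKM, and the ratio is lowest in replicate 1 of both regions.

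The share of each homoeolog in the level of its gene was compared between the regions for 4 shares, and the regions did not overlap in 2 of them. The 3 shares of ASN1 depend on each other, since they add up to the whole, and such shares of other genes were not analysed here. The 3D copy contributed 26.1, 28.9 and 26.7% of the ASN2 level in the IE libraries in replicate order, and 16.8, 25.2 and 24.4% in the RE libraries in the same order. Every IE library thus had a larger 3D share, and correspondingly a smaller 3A share, than every RE library. The means were 27.3 ± 1.50% in IE and 22.2 ± 4.64% in RE (SD, n = 3 each). The difference of 5.10 percentage points (standard error 2.81) gave p = 0.1 in a two-sided exact permutation test, the smallest that this design allows, and 0.2 after Benjamini-Hochberg adjustment over the 4 shares.

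The exact 95% interval of the 3D share in RE replicate 1, 14.4 to 19.5%, lay below those of the other 5 libraries, the RE libraries included. The intervals of RE replicates 2 and 3, 23.0 to 27.6% and 22.1 to 26.8%, overlapped those of IE replicates 1 and 3, 23.1 to 29.2% and 24.0 to 29.5%. The interval of IE replicate 2, 27.5 to 30.5%, lay above that of RE replicate 3 and only just overlapped that of RE replicate 2. Without RE replicate 1, the difference fell to 2.43 percentage points.

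The 5B copy contributed 23.9, 23.0 and 24.9% of the ASN1 level in the IE libraries in replicate order, and 22.0, 17.8 and 20.7% in the RE libraries in the same order. Again the 3 IE values were the higher ones, but the exact 95% intervals of all 6 libraries overlapped. The means were 24.0 ± 0.938% in IE and 20.2 ± 2.16% in RE (SD, n = 3 each), a difference of 3.78 percentage points (standard error 1.36, two-sided exact permutation test, p = 0.1, adjusted p = 0.2). The 5A share was 37.7 ± 0.287% in IE and 38.6 ± 3.16% in RE (SD, n = 3 each). For 5D, the share was 38.3 ± 0.678% in IE and 41.2 ± 2.54% in RE (SD, n = 3 each). Both shares overlapped between the regions (two-sided exact permutation test, p = 0.7 for 5A and p = 0.2 for 5D).

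**Figure D4:**
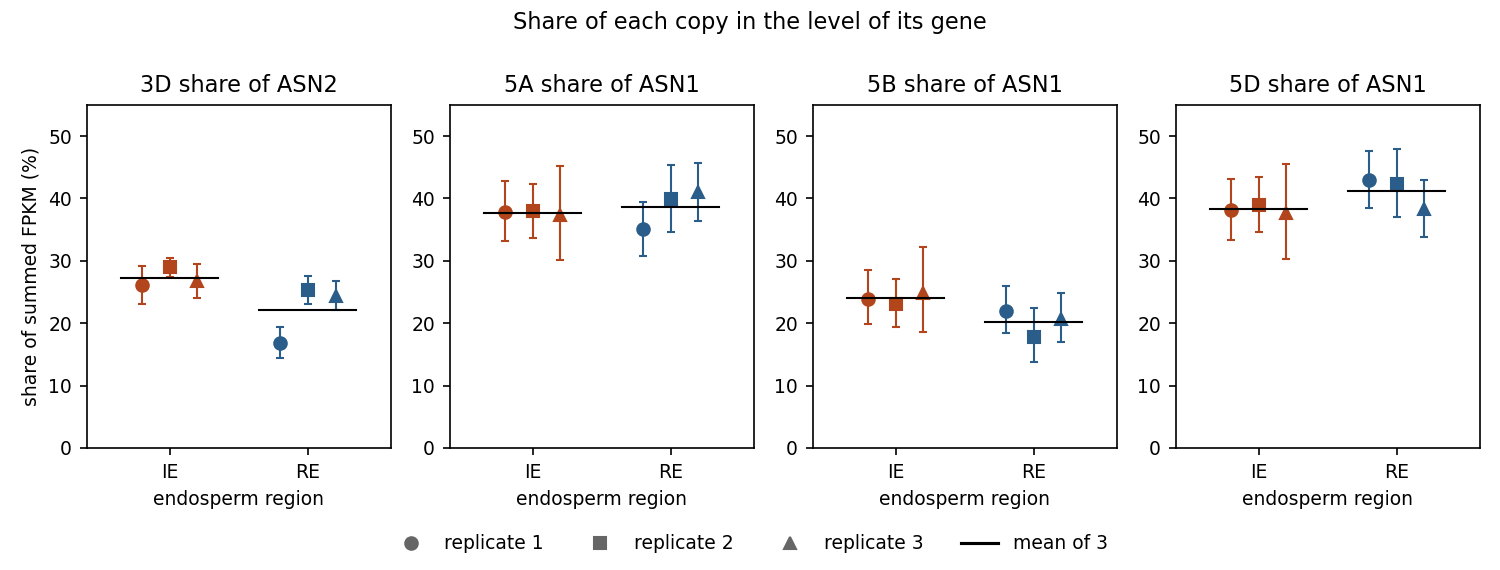
Share (%) of the 3D copy in the summed FPKM of ASN2 and of the 5A, 5B and 5D copies in that of ASN1, in the 3 IE and the 3 RE libraries. Vertical bars are exact 95% binomial intervals of the recovered fragments, carried over to the FPKM scale, and horizontal lines are means. The 3D share spans 26.1 to 28.9% in IE against 16.8 to 25.2% in RE, where replicate 1 stands lowest.

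For comparison, genes of nitrate reduction and of amino acid and ammonium transport that the study names by identifier were read in the same fit. They are a chosen part of its nitrogen metabolism genes, and the peptidase, protease inhibitor and glutathione transferase genes that it also names were not analysed here. The list holds 2 nitrate reductase genes, whose enzyme makes nitrite from nitrate, 5 amino acid transmembrane transporter genes and 1 ammonium transmembrane transporter gene. Of these 8 genes, 7 passed the filter on low values, and 0 were called with the adjusted p from limma. All 7 had their 3 IE values below their 3 RE values, which held for 11.9% of all genes tested. TraesCS2B01G551300 passed the filter only through RE, with a mean of 0.171 FPKM for IE against 0.911 FPKM for RE. The count therefore describes the genes that passed and is no result about the list. Whether some of the 7 are homoeologs of one another was not checked, so they may not be separate cases. Their median log2 fold change was -2.49 (from -3.31 to -1.89), while that of the 5 asparagine synthetase genes was 0.05 (from -0.30 to 0.75) and that of all genes tested -0.12. Some of the 7 lay near the floor in IE. TraesCS7A01G194500, TraesCS7B01G100100 and TraesCS7D01G196100 were read at 0.202, 0.151 and 0.101 FPKM in IE replicate 3, where 3 fragments on 1 kb equal 0.215 FPKM. TraesCS2B01G551300 was read at 0.070 FPKM in IE replicate 1. The size of such fold changes depends on the pseudocount of 0.1 FPKM. The study chose the 8 genes as differing between the regions, not all in the same direction, on libraries that may include these. The list is therefore not independent evidence in either direction, and a difference between the lists was not tested. The ammonium transporter gene TraesCS1D01G296600, with 0.274 ± 0.120 FPKM for IE against 0.518 ± 0.281 FPKM for RE (SD, n = 3 per region), did not reach the level required for the test. Its IE and RE values overlapped, so the filter left out the listed gene in which the regions were not separate. Glutamine synthetase, glutamate synthase and asparaginase genes were not analysed here, since 0 identifiers of the table matched the reference table at hand.

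The genes most like ASN2 and ASN1 in their pattern over the 6 libraries were sought among 6822 other reference genes averaging 10 FPKM or more, by the root-mean-square distance between log2 profiles, each centred on its own mean. For the ASN2 sum, whose own profile had a root-mean-square deviation of 0.57 around its mean, the nearest were TraesCS6D01G311300 (distance 0.046), TraesCS2D01G529200 (0.061) and TraesCS7D01G211900 (0.086). TraesCS6D01G311300 was read at 11.3, 36.4 and 17.7 FPKM in the IE libraries in replicate order, and at 11.9, 17.3 and 15.6 FPKM in the RE libraries in the same order. Like ASN2, it was highest in IE replicate 2 and lowest in replicate 1 of either region. For the ASN1 sum, with a root-mean-square deviation of 0.38, the nearest were TraesCS6B01G051100 (distance 0.077), TraesCS1D01G118500 (0.078) and TraesCS5A01G235400 (0.080). TraesCS6B01G051100 was read at 549, 527 and 267 FPKM in the IE libraries in replicate order, and at 554, 388 and 429 FPKM in the RE libraries in the same order. These distances are a description over 6 libraries.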

How the data were processed

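RNA of 6 endosperm libraries, 3 IE and 3 RE, was analysed, grouped by the region in the labels. Reads cleaned by the Illumina pipeline and by fastp were aligned by the authors to Chinese Spring (IWGSC1_popseq.31 in the methods) using HISAT2, and the authors deposited 1 FPKM value for each gene in each library. How fragments were counted, whether strand was used and how new genes were assembled is not given in the sources used here. Fragments were recovered as the whole numbers that the FPKM values are multiples of (within 0.002 fragments plus rounding), for 100% of the 86042 genes above 0, and make up 99.4 to 99.5% of the library totals. In simulated data, 6 of 6 totals came back exactly. Intervals from fragments cover counting error only.

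The comparison of IE with RE used limma 3.58.1 under R 4.3.3 (eBayes with a variance trend) on log2(FPKM + 0.1), a scale that understates changes of low values, over 51830 genes whose mean reached 0.5 FPKM, and p-values were adjusted after Benjamini and Hochberg. The deposited values are FPKM, so limma on the log scale was the main test in place of the study's count test, and a voom fit on the recovered fragments was an alternative. In data simulated for IE against RE, 93 of 200 genes with log2 changes of 2 or 3 in size and 4 unchanged genes were called among 51830. The noise was drawn separately for each gene, without shifts shared by a library. Changes as small as those of the 5 genes were not simulated. Sums, ratios and shares were compared by exact permutation tests over libraries (Python 3.11.15, scipy 1.17.1, numpy 2.4.6, pandas 2.3.3, matplotlib 3.10.9). Alternatives changed the pseudocount, filter, scaling, variance trend, replicate block or data (voom on fragments), or left out a library. The genes named are the 5 members, the listed nitrogen and storage protein genes and, for each sum, the 3 nearest profiles. Members and lists were chosen with earlier results of these data known.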

Additional observations from a re-analysis of the deposited data

How the results depend on the processing

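The median log2 fold change of all genes tested was -0.12 with FPKM as deposited, 0.01 with median-ratio scaling and -0.16 with scaling to an equal sum. Of the 75 log2 fold changes of the 5 genes under alternatives, 20 come from 4 settings that cannot move them (both other filters, no variance trend and the replicate block). Of the 30 with a library left out 6 turned, and of the other 25, with another pseudocount, scaling or voom, 0 turned. In none of the 75 was a gene called (limma adjusted p from 0.469 to 0.998). Without IE replicate 3, ASN1 5A was at 0.095, ASN1 5D at 0.027 and the ASN1 sum at 0.12. Without IE replicate 2, ASN2 3A was at -0.10, ASN1 5B at -0.05 and the ASN2 sum at -0.026. ASN1 5B was at -0.13 without IE replicate 1 and -0.18 without RE replicate 2, and the difference of the 5A share was 0.31 percentage points without RE replicate 3. With a library left out, the log2 difference ranged from -0.41 to 0.095 for ASN1 5A, -0.18 to 0.33 for ASN1 5B, -0.48 to 0.027 for ASN1 5D, -0.10 to 0.70 for ASN2 3A, 0.25 to 1.15 for ASN2 3D, -0.39 to 0.12 for the ASN1 sum, from -0.026 to 0.81 for the ASN2 sum and from 0.31 to 1.21 for their ratio. The share differences then ranged from 2.43 to 6.64 percentage points for 3D, 2.59 to 4.70 for 5B, -4.36 to -2.03 for 5D and -2.66 to 0.31 for 5A. Over all genes, 0 were called under each alternative with the adjusted p, whose smallest value ranged from 0.0564 to 0.625, and 2980 (5.75%) passed with the unadjusted p and the same fold change. This count was 1437 with a pseudocount of 1, 4821 with no filter and 5222 without IE replicate 2, and with median-ratio scaling it was split into 1315 higher and 1869 lower in IE, against 850 and 2130 with FPKM as deposited. The 5203 genes with an unadjusted p under 0.05 became 9291 without IE replicate 2 and 2854 without RE replicate 3. Same-numbered IE and RE libraries were not treated as pairs, since whether they came from the same grains is not given in the sources used here. Their deviations correlated at 0.11, 0.06 and -0.20, and those of differently numbered libraries at -0.24 to 0.25. These correlations cannot tell whether the libraries are paired. IE was the higher in 3 of 3 same-numbered pairs for ASN2 3D, the ASN2 sum, the ratio and the 3D and 5B shares. With a replicate block, 0 genes were called, and ASN2 3D had an unadjusted p of 0.0314 (limma adjusted p = 0.469). In this balanced design the block leaves differences as they are (-0.20, 0.44 and 0.64 for the ASN1 sum, the ASN2 sum and the ratio), and the exact sign-flip test of 3 pairs cannot give a p under 0.25, so the block says nothing about their stability. With 41 fragments in its lowest library, ASN1 5B is the gene most limited by depth.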
